A study of Mus musculus with 6 samples.

Results

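The genes described here are the collagen chains of the mouse transcriptome and 8 genes that usually accompany them in stroma, followed in marrow cultures grown on a soft or a stiff substrate. Members were the rows of the count tables whose symbol has the form of a collagen chain (Col, a number, a, a number), which gave 44 chains, together with the small leucine-rich proteoglycan genes Dcn, Lum, Bgn, Fmod and Ogn, the platelet-derived growth factor receptor genes Pdgfra and Pdgfrb, and Postn. These are 52 of 24062 genes in the tables. Marrow of C57BL/6J mice was cultured with GM-CSF at 20 ng/ml, with fresh cytokine on days 3, 6 and 10, and polyA RNA was sequenced from 3 samples at 2 kPa (labelled low tension) and 3 at 50 kPa (labelled high tension). All 6 samples shared the strain and the cytokine, and the groups differed by substrate stiffness. The labels call the cells dendritic cells and name no sort, so each value is an average over all cells of a culture, and fewer cells of a type and less RNA per cell cannot be told apart. The comparison of 50 kPa with 2 kPa asks how static stiffness alters transcription in such a culture. No statement in the labels says that the replicates were separate cultures or animals, and a p-value here covers only sample-to-sample spread, whose source may be technical.

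Collagens are trimeric proteins built from chains with a regularly repeated glycine. Fibril-forming chains make the cables of connective tissue, collagen IV makes the sheet of the basement membrane, and other classes decorate fibrils, span the plasma membrane or anchor epithelia. Small leucine-rich proteoglycans such as decorin and lumican bind collagen fibrils and regulate their diameter. In marrow, most type I and III collagen, decorin and lumican come from stromal cells, which are marked by the platelet-derived growth factor receptors, while blood-lineage cells transcribe only some chains.

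Libraries held 33.8 to 36.3 M counts, and 1 count was worth 0.0240 to 0.0311 CPM, counts per M of the library size scaled by edgeR's TMM factor. High tension replicates 1 and 2 were much closer to each other than other replicates were. A chi-square of their counts, divided by its degrees of freedom, was 6.71, and other same-group pairs gave 126 to 233. Pairs across groups gave 122 to 418, a range that overlapped. Low tension replicate 1 was closer to each library at 50 kPa (122 to 136) than to low tension replicates 2 and 3 (156 and 213). All 15 genes of a joint macrophage and dendritic cell marker list were detected in every library, with summed levels of 14840 to 27200 CPM at 2 kPa and 34610 to 44440 CPM at 50 kPa, and edgeR called 0 of the 15 (6 higher and 3 lower at an unadjusted p under 0.05). Of its genes closer to dendritic cells, Zbtb46 was at 7.08 to 12.7 CPM and Flt3 at 2.09 to 9.19 CPM over the 6 libraries. Others of the list were more abundant, with Ccr7 at 141 to 579, Itgax at 299 to 2958 and H2-Aa at 1029 to 5386 CPM. Lyz2, a macrophage and granulocyte gene, was at 6228 to 17270 CPM. By point estimate Itgax and H2-Aa were higher at 50 kPa (log2 change 1.58 and 1.27). Zbtb46, Flt3 and Ccr7 were lower (-0.36, -1.39 and -1.22).

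Most of the 52 genes were scarce. Their mean TMM-scaled level over the 6 libraries was above 1 CPM in 19 (36.5%), beside 49.4% of all genes in the tables. At 2 kPa 20 genes had a mean above 1 CPM and at 50 kPa 12 did, 11 of them in both groups. The 9 genes above 1 CPM only at 2 kPa were Col1a1, Col1a2, Col3a1, Col5a3, Col18a1, Dcn, Lum, Bgn and Pdgfrb, and the gene above 1 CPM only at 50 kPa was Col6a3. Single libraries differed. Low tension replicate 1 had 12 genes above 1 CPM, as did high tension replicates 1 and 2, while low tension replicates 2 and 3 had 21 and 20 and high tension replicate 3 had 13. In all 6 libraries 9 genes exceeded 1 CPM. The 7 genes with 0 counts everywhere were Col8a2, Col10a1, Col11a1, Col13a1, Col22a1, Col26a1 and Ogn. A further 22 genes had counts but were below the count filter, and 23 were tested.

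**Figure D1:**
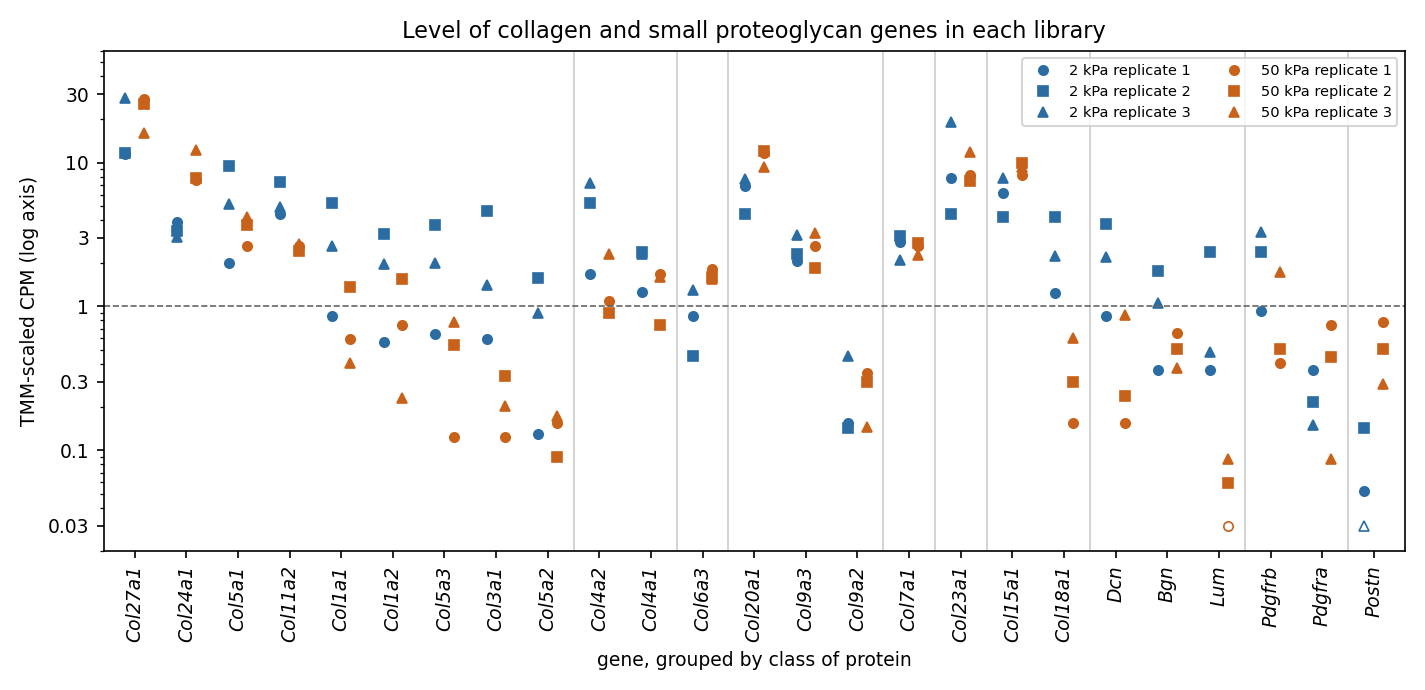
TMM-scaled CPM of the 23 genes tested and of Col5a2 and Postn in each library, on a log axis, with blue symbols for 2 kPa, orange for 50 kPa and 1 symbol shape per replicate number. Open symbols mark libraries with 0 counts, drawn at 0.03 CPM, and the dashed line is 1 CPM. Col24a1 lies higher in all 3 libraries at 50 kPa, and Lum, Col3a1 and Col18a1 lie lower.

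Of the 23 tested genes, 1 rose at 50 kPa, Col24a1, 0 fell and 22 were not called by edgeR's quasi-likelihood test with Benjamini-Hochberg adjustment over all 13155 genes. Over all genes 1.47% were called higher and 1.98% lower, 3.45% in all, so 1 call among 23 (4.35%) is near the background. At an unadjusted p under 0.05 edgeR gave 8 genes lower and 4 higher, beside 14.8% and 13% of all genes tested. By point estimate 15 of the 23 (65.2%) were below 0, beside 53.2% of all genes. DESeq2 called 7 lower and 2 higher, beside 9.51% and 8.52% of all genes, and limma-voom called 0 lower. The groups did not overlap in 8 of the 23 (34.8%), 4 lower and 4 higher at 50 kPa, beside 34.1% of all genes. The median log2 fold change of the 23 was -0.67, and that of all genes tested was -0.028. A gene that passed the filter through high counts in 1 group had to differ, so these counts and this median describe the 23 genes and carry no further weight. The typical standard error of a log2 fold change was large for these genes, with a median of 0.579 against 0.177 over all genes and 0.253 over the 6152 genes in their range of levels. A gene that was not called may or may not differ by the amount its standard error allows.

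**Figure D2:**
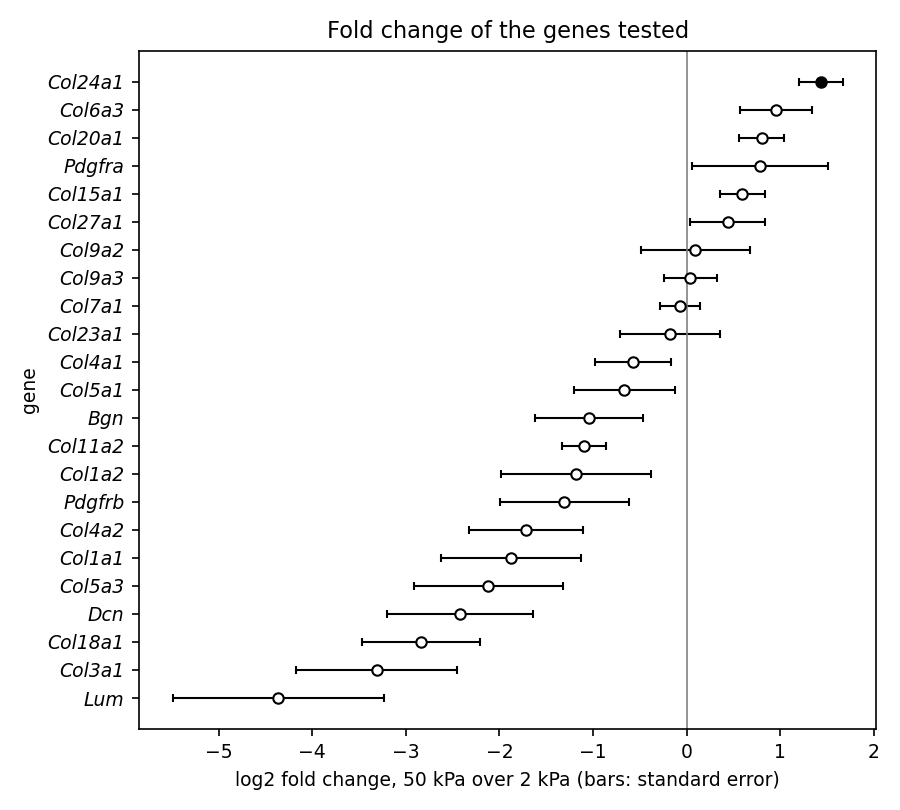
Log2 fold change of each tested gene, 50 kPa over 2 kPa, with its standard error from edgeR's quasi-likelihood fit (3 samples per group). The filled point is Col24a1, the gene with an adjusted p under 0.05, and open points are genes that were not called, from Lum at -4.36 to Col6a3 at 0.95.

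Collagen XXIV, a minor fibril-forming chain known from bone and cornea, gave the called change. Col24a1 (chromosome 3, 145292472 to 145552011, plus strand of GRCm38) had 3.88, 3.33 and 3.06 CPM in low tension replicates 1 to 3 and 7.62, 7.85 and 12.3 CPM in high tension replicates 1 to 3. The 3 libraries at 2 kPa lay close together, and every library at 50 kPa lay above them. The level went from 3.43 ± 0.417 to 9.27 ± 2.65 CPM (SD, n = 3), a rise of 2.70-fold and a log2 change of 1.43 ± 0.24 (edgeR adjusted p = 0.0394). DESeq2 gave an adjusted p of 4.11e-06. The edgeR call was kept without high tension replicate 3 (log2 change 1.18, adjusted p = 0.0490). It was lost when any other library was left out, with edgeR adjusted p-values of 0.0508, 0.114 and 0.0684 without low tension replicates 1, 2 and 3 and 0.177 and 0.178 without high tension replicates 1 and 2, where the change was 1.36 to 1.57. It was also lost when high tension replicates 1 and 2 were summed into 1 sample (1.56, edgeR adjusted p = 0.156) and with total counts as the scaling (1.29, edgeR adjusted p = 0.0586).

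Promoter sequence is shown for Col24a1, the called chain, and for Col3a1 and Col5a3, to set their start regions side by side. These 2 fibril-forming chains had lower point estimates at 50 kPa and were not called by edgeR. Each is the 250 bases before the RefSeq transcript start, 5′ to 3′ on the gene's strand, from RefSeq on GRCm38.p6, at chr3:145292222-145292471 (plus), chr1:45311288-45311537 (plus) and chr9:20815068-20815317 (minus). Capitals mark matches, on either strand, to 4 motifs, and no match overlaps another here. They are the CCAAT box (letters CCAAT), the TATA box (letters TATAAA), the AP-1 motif (letters TGANTCA) and the first letters of the cyclic AMP response element (letters TGACGTC).
Col24a1: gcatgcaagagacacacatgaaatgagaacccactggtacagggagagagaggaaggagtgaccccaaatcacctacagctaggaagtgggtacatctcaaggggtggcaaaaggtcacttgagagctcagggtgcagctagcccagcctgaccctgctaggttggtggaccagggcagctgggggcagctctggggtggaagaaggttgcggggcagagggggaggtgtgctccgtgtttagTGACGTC
Col3a1: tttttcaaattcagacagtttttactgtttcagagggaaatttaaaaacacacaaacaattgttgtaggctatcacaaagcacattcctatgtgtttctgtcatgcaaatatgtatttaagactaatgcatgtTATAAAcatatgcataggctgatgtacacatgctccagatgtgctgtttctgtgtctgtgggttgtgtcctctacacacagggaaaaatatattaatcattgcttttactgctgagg
Col5a3: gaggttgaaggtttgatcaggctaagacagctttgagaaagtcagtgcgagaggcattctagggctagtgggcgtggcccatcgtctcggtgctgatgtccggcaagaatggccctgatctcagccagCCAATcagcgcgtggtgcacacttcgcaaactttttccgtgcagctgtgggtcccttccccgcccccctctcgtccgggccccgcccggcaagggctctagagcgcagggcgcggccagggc
The Col24a1 window held TGACGTC at -7 to -1 before its start and no match to the other motifs. The Col3a1 window held TATAAA at -117 to -112, and that of Col5a3 held CCAAT at -122 to -118. Matches were to letters at any place in the window, and whether they act as these elements was not tested. Among 32851 RefSeq windows of the 250 bases before a start CCAAT was in 33.8%, TATAAA in 12.4%, TGANTCA in 6.75% and TGACGTC in 2.78%. Of the 44 windows matched to 40 of the 52 genes, 13 held CCAAT, 7 TATAAA, 1 TGANTCA and 1 TGACGTC. The base composition of the 3 windows differed, with 58% G and C in Col24a1, 35.2% in Col3a1 and 62.8% in Col5a3. The TGACGTC motif was added after the Col24a1 letters were seen.

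The other fibril-forming chains mostly had lower point estimates at 50 kPa. Of the 11 chains of this class 1 had no count and 8 were tested, 6 of them with a log2 change below 0 and 2 above. Col3a1, the chain of type III collagen, had 0.595, 4.58 and 1.41 CPM at 2 kPa and 0.124, 0.328 and 0.203 CPM at 50 kPa, from 23, 191 and 47 counts and 4, 11 and 7 counts. The groups did not overlap, and low tension replicate 2 was far above the other 2 samples of its group. The log2 change was -3.31 ± 0.86 (edgeR adjusted p = 0.0816; DESeq2 adjusted p = 0.00137), and -2.17 without low tension replicate 2.

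Type I collagen, the main collagen of bone and skin, is made of the products of Col1a1 and Col1a2. Col1a1 was at 0.854, 5.25 and 2.61 CPM at 2 kPa and at 0.591, 1.37 and 0.405 CPM at 50 kPa (log2 change -1.88 ± 0.75, edgeR adjusted p = 0.169). Col1a2 was at 0.569, 3.19 and 1.98 CPM and at 0.747, 1.55 and 0.231 CPM (-1.18 ± 0.80, edgeR adjusted p = 0.368). In both genes low tension replicate 1 lay among the samples at 50 kPa, so the groups overlapped. Without low tension replicate 2 the log2 changes were -1.13 and -0.59, and without high tension replicate 2 they were -2.52 and -1.95. Per kb of exon, the ratio of Col1a1 to Col1a2 was 2.5 to 3.12 at 2 kPa and 1.5 to 3.31 at 50 kPa. These ranges over single libraries overlapped. The size of the ratio depends on the lengths used, which join all annotated exons, 6563 bp for Col1a1 and 12426 bp for Col1a2. The transcripts made in these cells may be shorter, so the ratio is no measure of chain abundance.

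Collagen V chains join type I fibrils and set their diameter. Col5a1 was at 1.99, 9.45 and 5.17 CPM at 2 kPa and at 2.61, 3.67 and 4.2 CPM at 50 kPa, with the samples at 50 kPa inside the range at 2 kPa. Its log2 change of -0.66 ± 0.54 (edgeR adjusted p = 0.444) was -0.034 without low tension replicate 2. Col5a3 was at 0.647, 3.67 and 2.01 CPM and at 0.124, 0.537 and 0.781 CPM, where high tension replicate 3 exceeded low tension replicate 1. Its log2 change was -2.12 ± 0.79 (edgeR adjusted p = 0.152; DESeq2 adjusted p = 0.0487), and -1.45 without low tension replicate 2. Col5a2, which lies 24.6 kb from Col3a1 on chromosome 1 on the opposite strand, had 5, 66 and 30 counts at 2 kPa and 5, 3 and 6 counts at 50 kPa and missed the filter. Fitted without a filter it stood at -2.61 ± 0.87 (edgeR adjusted p = 0.14).

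Per kb, Col5a1 was 2.06 to 2.47 times Col5a3 in the 3 libraries at 2 kPa and 4.31 to 16.8 times in those at 50 kPa. The ratios at 50 kPa rest on 4, 18 and 27 counts of Col5a3. The ranges of this ratio did not overlap, but whether the proportion of these chains differed was not tested.

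Col11a2, a chain of cartilage collagen XI, differed from these in its spread. It had 4.40, 7.34 and 4.90 CPM at 2 kPa and 2.64, 2.42 and 2.72 CPM at 50 kPa, and the groups did not overlap. The log2 change was -1.10 ± 0.24 (edgeR adjusted p = 0.0607; DESeq2 adjusted p = 0.00111), and -0.84 to -1.24 with any 1 library left out. Its partner chain genes in cartilage, Col11a1 and Col2a1, had 0 counts in all libraries and 0 to 3 counts per library. Col27a1, a chain also known from cartilage, had the highest CPM of all 52 genes, 11.6, 11.7 and 28.1 at 2 kPa and 27.9, 25.4 and 16.2 at 50 kPa. Its groups overlapped widely (log2 change 0.44 ± 0.40, edgeR adjusted p = 0.498).

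**Figure D3:**
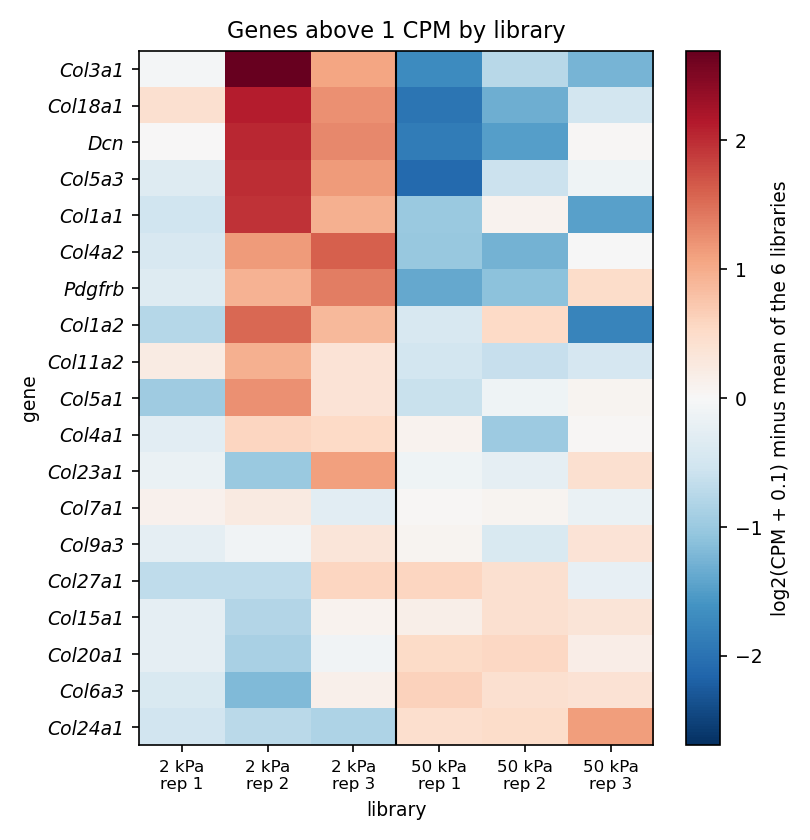
Log2 of CPM plus 0.1 in each library minus the gene's mean over the 6 libraries, for the 19 genes above 1 CPM, ordered by fold change from lowest to highest. Red marks a library above the gene's mean and blue below it. Low tension replicate 2 holds the strongest red, in Col3a1, Col18a1, Dcn, Col5a3 and Col1a1, and is blue for Col15a1, Col20a1, Col6a3, Col27a1 and Col23a1.

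Collagen IV chains form the network of basement membranes. Col4a1 and Col4a2 start head to head on chromosome 8, and their annotated spans share 22 bp on opposite strands, so reads there cannot be assigned if the counting ignored strand. Col4a2 was at 1.68, 5.23 and 7.27 CPM at 2 kPa and at 1.09, 0.896 and 2.32 CPM at 50 kPa (log2 change -1.71 ± 0.61, edgeR adjusted p = 0.14; DESeq2 adjusted p = 0.0345). Col4a1 was at 1.27, 2.40 and 2.31 CPM and at 1.68, 0.746 and 1.59 CPM (-0.57 ± 0.40, edgeR adjusted p = 0.381). Groups overlapped in both genes, through low tension replicate 1. The other 4 collagen IV genes had 0 to 5 counts per library. Collagen VIII and X genes were at 0 to 2 counts.

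Multiplexins are basement membrane collagens that carry sugar chains, and the end of collagen XVIII is cut off as endostatin. Col18a1 (chromosome 10, 77052178 to 77166548, minus strand) had 1.24, 4.2 and 2.25 CPM at 2 kPa and 0.156, 0.299 and 0.608 CPM at 50 kPa. Every sample at 50 kPa was below every sample at 2 kPa, and the log2 change was -2.84 ± 0.64 (edgeR adjusted p = 0.0636; DESeq2 adjusted p = 0.00039), with -2.28 if low tension replicate 2 was left out and -3.46 if high tension replicate 3 was. The related Col15a1 went the other way, with 6.19, 4.22 and 7.84 CPM at 2 kPa and 8.18, 10.0 and 9.35 CPM at 50 kPa. Its groups did not overlap either, and it stood at 0.60 ± 0.24 (edgeR adjusted p = 0.174).

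Among the fibril-associated, beaded-filament, transmembrane and anchoring collagens no gene passed the edgeR threshold. Col20a1, a fibril-associated chain, was at 6.88, 4.41 and 7.66 CPM at 2 kPa and at 11.7, 12.1 and 9.26 CPM at 50 kPa, without overlap (log2 change 0.80 ± 0.24, edgeR adjusted p = 0.102; DESeq2 adjusted p = 0.0263). Col6a3, a chain of the collagen VI microfibril, was at 0.854, 0.456 and 1.29 CPM and at 1.84, 1.61 and 1.56 CPM, also without overlap (0.95 ± 0.38, edgeR adjusted p = 0.171). Its partners Col6a1 and Col6a2 had 7 to 28 and 6 to 9 counts at 2 kPa and 4 to 8 and 3 to 11 counts at 50 kPa, below the filter. Per kb, Col6a3 was 0.248 to 1.73 times Col6a1 at 2 kPa and 2.47 to 4.94 times at 50 kPa, ranges that did not overlap but rest on these few counts.

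Col23a1, a transmembrane collagen, was at 7.76, 4.39 and 19.1 CPM at 2 kPa and at 8.15, 7.46 and 12.0 CPM at 50 kPa (log2 change -0.18 ± 0.53, edgeR adjusted p = 0.841). The sign of that change turned when low tension replicate 3, its highest library, was left out (0.60). Col7a1, the anchoring fibril chain of skin, stayed within 2.10 to 3.09 CPM in all 6 libraries (-0.065 ± 0.21, edgeR adjusted p = 0.857), and Col9a3, a chain of cartilage collagen IX, within 1.85 to 3.24 CPM (0.042 ± 0.28, edgeR adjusted p = 0.935). Its partner gene Col9a2 had 5 to 15 counts per library. Exons of Col9a3 share 234 bp with Tcfl5 on the opposite strand, 6.07% of its exon length, and the labels leave unsaid whether the counting used strand.

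Scaled by the joined length of all annotated exons, which compares genes only roughly, Col1a1 and Col3a1 were not among the most abundant chains. At 2 kPa the order of mean CPM per kb was Col23a1 1.82, Col27a1 1.31, Col20a1 1.23, Col15a1 0.958, Col11a2 0.807 and Col4a2 0.714, with Col1a1 at 0.443, Col24a1 at 0.45 and Col3a1 at 0.224. At 50 kPa it was Col20a1 2.14, Col27a1 1.78, Col23a1 1.60, Col15a1 1.45 and Col24a1 1.22, with Col1a1 at 0.12 and Col3a1 at 0.0223. The SD of Col23a1 at 2 kPa was 7.71 CPM for a mean of 10.4 CPM, and that of Col27a1 was 9.5 for 17.1, so the order of the leading 2 chains there is not fixed by these samples.

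Decorin and lumican genes lie 47.0 kb apart on chromosome 10, on the same strand. Dcn had 0.854, 3.77 and 2.22 CPM at 2 kPa and 0.156, 0.239 and 0.868 CPM at 50 kPa, where high tension replicate 3 was level with low tension replicate 1. Its log2 change was -2.42 ± 0.78 (edgeR adjusted p = 0.118; DESeq2 adjusted p = 0.0179), with -1.84 if low tension replicate 2 was left out and -3.50 if high tension replicate 3 was. Lum had 14, 100 and 16 counts at 2 kPa and 0, 2 and 3 at 50 kPa, or 0.362, 2.40 and 0.481 CPM and 0, 0.0597 and 0.0868 CPM. The groups did not overlap, and Lum had the largest fold difference of the 23 tested genes (20.6-fold lower, log2 change -4.36 ± 1.13, edgeR adjusted p = 0.0812; DESeq2 adjusted p = 0.00197). Most of its counts came from low tension replicate 2, without which the log2 change was -2.99. It was -5.0 when high tension replicate 3 was left out.

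Biglycan, a further small proteoglycan, had 0.362, 1.75 and 1.05 CPM at 2 kPa and 0.653, 0.507 and 0.376 CPM at 50 kPa, with overlap (Bgn, log2 change -1.04 ± 0.58, edgeR adjusted p = 0.282, and -0.46 without low tension replicate 2). Fmod, which encodes fibromodulin, had 0 or 1 count per library. Ogn, which encodes osteoglycin, had none.

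The receptors went in different directions by point estimate. Pdgfrb, a receptor of pericytes and stroma, was at 0.932, 2.40 and 3.27 CPM at 2 kPa and at 0.404, 0.507 and 1.74 CPM at 50 kPa (log2 change -1.31 ± 0.69, edgeR adjusted p = 0.263), and the change was -2.25 without high tension replicate 3. Pdgfra, a receptor of fibroblasts, was at 0.362, 0.216 and 0.15 CPM and at 0.747, 0.448 and 0.0868 CPM (0.79 ± 0.72, edgeR adjusted p = 0.498), and the change was 0.14 without high tension replicate 1. Both pairs of groups overlapped. Their ligand gene Pdgfb rose from 17.2 ± 3.18 to 38.8 ± 8.0 CPM (SD, n = 3; 1.17 ± 0.21, edgeR adjusted p = 0.0444), and 1 of 3 ligand genes tested was called.

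Postn, which encodes periostin, a matricellular protein of stroma and bone lining, had 2, 6 and 0 counts at 2 kPa and 25, 17 and 10 counts at 50 kPa. The groups did not overlap, at 0 to 0.144 CPM and 0.289 to 0.778 CPM. The gene missed the filter, and without a filter it stood at 2.87 ± 0.79 (edgeR adjusted p = 0.0993 over 17914 genes). Among the 22 genes with counts below the filter, Postn was the only one higher at 50 kPa without overlap, and 3 were lower without overlap, Col12a1, Col14a1 and Col17a1. In the other 18 the groups overlapped, and over all tested genes they did not overlap in 34.1%. No such share was computed over all genes below the filter, so this count carries no further weight. Col12a1, a fibril-associated chain, had 9, 36 and 13 counts at 2 kPa and 7, 7 and 1 at 50 kPa. Its relative Col14a1 had 3, 10 and 5 counts and 0, 1 and 2 counts (-2.26 ± 0.85 without a filter, edgeR adjusted p = 0.178). Col17a1, a transmembrane chain of epithelial anchoring, had 5, 3 and 3 counts and 2, 1 and 1 counts.

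**Figure D4:**
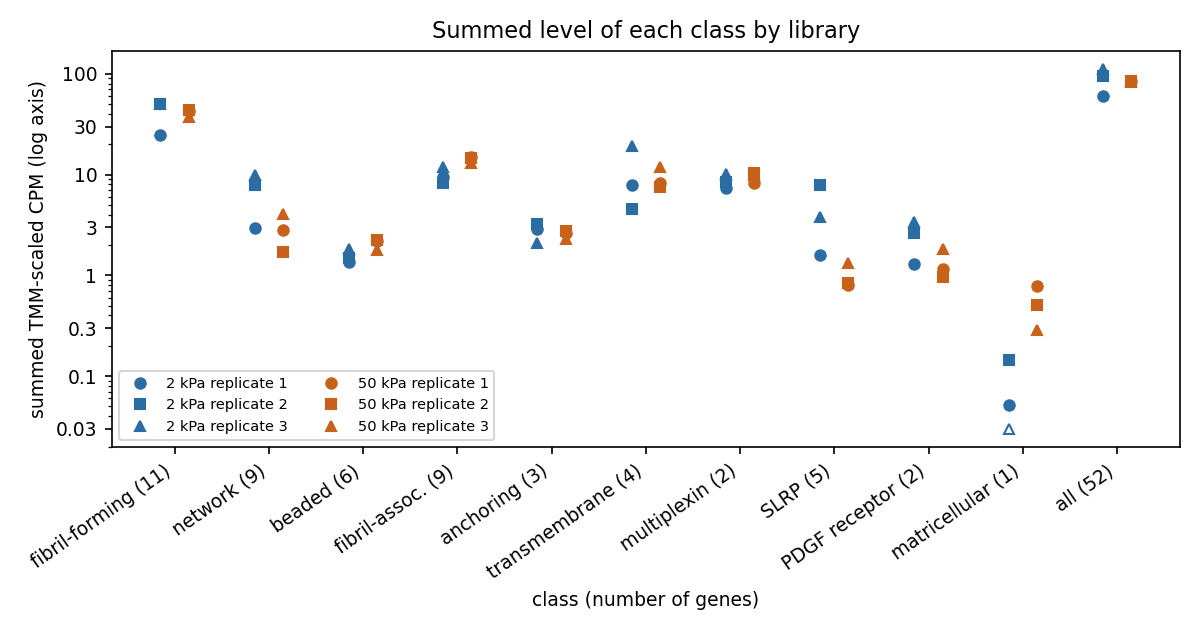
Summed TMM-scaled CPM of the genes of each class in each library, on a log axis, with the number of genes in parentheses. Small leucine-rich proteoglycans (SLRP) lie at 1.61 to 7.92 CPM at 2 kPa and 0.809 to 1.33 CPM at 50 kPa, the open symbol marks a library with 0 counts drawn at 0.03 CPM, and the sum over all 52 genes is 83.8 to 84.6 CPM at 50 kPa.

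Summed over the 52 genes, the level was 59.7, 94.5 and 112 CPM in low tension replicates 1 to 3 and 84.4, 84.6 and 83.8 CPM in high tension replicates 1 to 3. The sums at 50 kPa lay inside the range at 2 kPa, so these genes took no clearly different part of the counts. The sum is carried by Col27a1, Col23a1, Col20a1, Col15a1 and Col24a1, and it hides the small proteoglycans, whose sums were 1.61, 7.92 and 3.76 CPM at 2 kPa and 0.809, 0.836 and 1.33 CPM at 50 kPa.

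Low tension replicate 2 stood apart in these genes. It held the highest level of 12 of the 23 tested genes, beside 28.4% of all genes tested. These 12 were among the 15 with a negative log2 change, and 49.1% of all genes with a negative change were highest there. A high level at 2 kPa itself lowers the log2 change and can carry a gene past the filter, so these counts only describe the 23 genes. In 9 of the 23 (39.1%), Col1a1, Col1a2, Col3a1, Col5a1, Col5a3, Col18a1, Dcn, Lum and Bgn, the level in low tension replicate 2 was over 2 times the mean of the other 2 samples at 2 kPa. That was so for 2.95% of all genes tested and for 5.69% of genes in the same range of levels. The excess went from 2.40 times in Col18a1 to 5.69 times in Lum. Col23a1, Col6a3, Col9a2, Col27a1, Col15a1 and Col20a1 had 0.327 to 0.607 of that mean in the same library. This division was seen in the data before it was counted.

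Markers of the cells that usually make these proteins were mostly at trace levels. Of 24 fibroblast and marrow stroma markers 20 had a count, 10 were tested, Lepr rose, Pi16 fell and 8 were not called. Twist2, Tcf21, Mfap4 and Dpt were at 0 in all libraries, and Twist1, Ebf3, Fbln1, Mgp and Mfap5 had 0 to 4 counts per library. The summed level of the list was 313 to 376 CPM at 2 kPa and 431 to 596 CPM at 50 kPa. It was carried by Igf1, which macrophages also transcribe, by Lepr, the leptin receptor gene, and by Thy1. Thy1 was at 44.1, 168 and 66.5 CPM at 2 kPa and at 56.1, 53.9 and 67.6 CPM at 50 kPa (log2 change -0.65 ± 0.48, edgeR adjusted p = 0.399). In low tension replicate 2 Thy1 was the largest part, above Lepr at 69.5, Igfbp4 at 61.7 and Igf1 at 41.7 CPM. The single genes of the list mostly pointed the other way from its sum. The median log2 change of the 10 tested was -1.29, 7 of the 10 estimates were below 0, and at an unadjusted p under 0.05 edgeR gave Cxcl12, Pi16 and Vcam1 lower and Lepr and Foxc1 higher. Cxcl12, the chemokine of marrow stroma, was at 2.67, 5.66 and 2.64 CPM and at 0.342, 0.328 and 1.62 CPM (log2 change -2.25 ± 0.70, edgeR adjusted p = 0.11). Of the 10 tested, 5 were highest in low tension replicate 2, 2 in low tension replicate 3 and 3 in a library at 50 kPa, and Igf1 was lowest in low tension replicate 2. The part of these cells in the differences between groups was not tested.

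Osteoblast markers had 9 of 11 genes with a count, with Mepe and Sost at 0. Their summed levels were 35.7 to 38.9 CPM at 2 kPa and 40.6 to 44.8 CPM at 50 kPa. These sums were carried by Runx2, at 29.9 to 35.5 and 38.9 to 43.8 CPM, which was not called (edgeR adjusted p = 0.132). Among 4 tested Alpl fell, from 3.48 ± 1.19 to 0.457 ± 0.243 CPM (edgeR adjusted p = 0.0381). Chondrocyte markers had 6 of 7 with a count and 0 of 1 tested called by edgeR (0 at an unadjusted p under 0.05), summed to 0.871 to 1.01 and 0.955 to 1.34 CPM, with Acan at 0. Pericyte and smooth muscle markers were all 10 detected, at 9.79 to 12.2 and 7.85 to 9.21 CPM. Endothelial markers had 9 of 10 with a count, at 280 to 549 and 398 to 489 CPM, with Cldn5 at 0. Adipocyte markers had 4 of 6, at 34.4 to 151 and 104 to 153 CPM, carried by Fabp4, with Plin1 and Lep at 0. In the last 3 lists edgeR called 0 genes of 2, 6 and 1 tested, with 0, 3 and 0 at an unadjusted p under 0.05. Among blood-lineage markers, edgeR called some genes lower and none higher. Neutrophil markers were called lower in 7 of 15 tested, with sums of 3959 to 7952 and 920 to 1760 CPM. B cell markers were called lower in 6 of 8, with sums of 62.4 to 116 and 7.31 to 15.9 CPM. Megakaryocyte markers were called lower in 4 of 9, with sums of 237 to 395 and 85.3 to 248 CPM that overlapped. Over all genes 1.98% were called lower. At an unadjusted p under 0.05 edgeR gave 14, 7 and 8 genes of these lists lower and 0 higher, beside 14.8% of all genes lower. Pf4, a platelet chemokine gene, was not among the called ones (log2 change -0.13 ± 0.51, edgeR adjusted p = 0.883). Their part in the collagen values was not tested.

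Of 21 genes that fold and modify collagen and were tested, 2 rose, 0 fell and 19 were not called. Over all genes 1.47% were called higher and 1.98% lower. At an unadjusted p under 0.05 edgeR gave 11 of the list higher and 1 lower, beside 13% and 14.8% of all genes. The summed level of the list was 2071 to 2466 CPM at 2 kPa and 2827 to 3344 CPM at 50 kPa. Its median log2 change was 0.36, against -0.028 for all genes. Leprel2, a prolyl 3-hydroxylase gene, rose from 5.66 ± 0.681 to 12.0 ± 1.29 CPM (1.08 ± 0.15, edgeR adjusted p = 0.0349). Crtap, which encodes cartilage-associated protein, needed for prolyl 3-hydroxylation of collagen, rose from 36.5 ± 6.05 to 70.8 ± 12.8 CPM (0.96 ± 0.18, edgeR adjusted p = 0.0486). P4hb, which encodes protein disulfide isomerase and a subunit of prolyl 4-hydroxylase, had the highest level of the list, 795 ± 35.6 CPM at 2 kPa.

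Of 10 procollagen processing and cross-linking genes tested, Thbs2, which encodes thrombospondin 2, fell from 0.578 ± 0.245 to 0.0692 ± 0.033 CPM (log2 change -2.99 ± 0.55, adjusted p = 0.0481 by edgeR), 0 rose and 9 were not called. None of 13 collagen receptor and uptake genes was called by edgeR, with 1 higher and 3 lower before adjustment (p under 0.05). The 2 at the highest level were Itgb1, the shared chain of collagen-binding integrins, at 725 ± 226 CPM, and Mrc1, a mannose receptor that takes up collagen, at 366 ± 311 CPM at 2 kPa.

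Tsku, which encodes tsukushi, another small leucine-rich proteoglycan that acts as a secreted signalling modulator, rose from 9.09 ± 0.545 to 29.0 ± 1.49 CPM (1.68 ± 0.10, edgeR adjusted p = 0.022). It was 1 of 2 further genes of that family tested, and the other, Prelp, was at 0.585 ± 0.152 and 0.186 ± 0.19 CPM (-1.62 ± 0.65, edgeR adjusted p = 0.171). Among 14 larger proteoglycan genes tested Vcan, which encodes versican, fell from 184 ± 74.0 to 48.5 ± 16.0 CPM (log2 change -1.93 ± 0.35, adjusted p = 0.0463 by edgeR) and 13 were not called. None of 10 laminin, nidogen and related genes, the partners of collagen IV, was called by edgeR, with 1 higher and 4 lower at an unadjusted p under 0.05.

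In the TGF beta pathway, which induces collagen genes in fibroblasts, 1 gene rose, 2 fell and 16 of 19 were not called. Ltbp3, a latent TGF beta binding protein gene, rose from 5.13 ± 0.41 to 12.3 ± 0.868 CPM (1.27 ± 0.13, edgeR adjusted p = 0.0286), and its relative Ltbp1 fell from 4.39 ± 0.496 to 0.334 ± 0.229 CPM (log2 change -3.69 ± 0.47, adjusted p = 0.0322 by edgeR). Smad3, a transcription factor of the pathway, fell from 5.02 ± 2.18 to 0.935 ± 0.169 CPM (log2 change -2.42 ± 0.36, adjusted p = 0.036 by edgeR). The ligand gene Tgfb1 was at 384 ± 55.3 and 458 ± 21.9 CPM and was not called (0.26 ± 0.14, edgeR adjusted p = 0.284). Calls in these lists depended on single libraries as over all genes, where leaving out high tension replicate 1 or 2 left edgeR with 0 calls (966 and 947 genes higher, 1114 and 1115 lower at an unadjusted p under 0.05). Leaving out low tension replicate 2 left 1 call and leaving out low tension replicate 3 left 3.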

How the data were processed

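PolyA RNA libraries of 3 samples at 2 kPa and 3 at 50 kPa were grouped by their titles. Each library has a deposited table of raw counts by gene symbol, and the authors prepared the libraries with NEBNext Ultra II Directional reagents, per the labels' protocols. The submitters' processing notes list FastQC 0.11.2, TopHat2 2.0.11, HTSeq 0.6.1p2, edgeR 3.16.5 and 3.8.6 and the builds mm10 and hg19, with no role or order. Not given in the sources used here are the annotation that was counted and whether strand was used.

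The analysis used edgeR 4.0.16 in R 4.3.3. Low genes were left out by filterByExpr (minimum count 10, minimum total 15), libraries were scaled by TMM, and glmQLFit and glmQLFTest were run on the 2 stiffness groups. The Benjamini-Hochberg adjustment ran over 13155 genes, with a threshold of 0.05. A standard error is the log2 fold change divided by the square root of F. CPM per kb used the joined length of all annotated exons of a gene in GENCODE vM21 (GRCm38), where all 52 symbols matched. Named genes were those above 1 CPM, those with an unadjusted p under 0.05, the main fibrillar and basement membrane chains and the 8 added genes, and in other lists the called genes (at most 4) and the 2 most abundant. Zbtb46, Flt3, Ccr7, Itgax, H2-Aa, Cxcl12, Vcam1, Foxc1, Thy1, Igfbp4 and Prelp were named after their values were seen, as were the low-count chains. Of the 2 most abundant genes of a list only those that a sentence needs are given. The members and lists were chosen with earlier results of these data known. Alternatives used DESeq2 1.42.0, limma 3.58.1 voom, other scalings and filters, a robust fit, replicate number as a block and each library left out. The procedure was tested on simulated data. Plots used Python 3.11.15 and matplotlib 3.10.9.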

Additional observations from a re-analysis of the deposited data

How the results depend on the processing

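The count of the 52 genes above 1 CPM was 19 under each scaling, 16 when 3 libraries had to exceed it, 22 at 0.5 CPM and 10 at 2 CPM, and 15 to 19 with 1 library left out. Genes of the set called higher (1 by edgeR) numbered 0 with total counts as the scaling, with at least 5 CPM in 3 libraries and with high tension replicates 1 and 2 summed, 2 by DESeq2, and 0 to 1 with 1 library left out. Genes of the set called lower (0 by edgeR) numbered 7 by DESeq2 and 0 to 2 with 1 library left out, where 2 were called without low tension replicate 1. With the replicate block, 3 were called lower (Lum, Col3a1 and Col18a1), and over all genes 254 higher and 522 lower. Deviations of same-numbered libraries from their group means correlated with r = 0.542, -0.106 and 0.488 for numbers 1, 2 and 3, and that of number 2 was negative, so pairing was not assumed. The median log2 change of the tested genes (-0.67) was 0.58 over the 5 genes left by the filter of 5 CPM in 3 libraries, and -1.06 to -0.46 with 1 library left out.

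Over all genes, calls higher and lower (194 and 260) were 77 and 257 with total counts, 20 and 16 with at least 5 CPM in 3 libraries, 1121 and 1251 by DESeq2, 0 and 0 with high tension replicates 1 and 2 summed (984 and 1154 at an unadjusted p under 0.05 by edgeR), and 0 to 255 and 0 to 256 with 1 library left out. Of the 23 tested genes 19 kept their sign in every one of the 16 other fits that held them (the filter of 5 CPM in 3 libraries held 5). Sign turned in 4 genes that were not called. Col23a1 was at 0.11 by limma-voom, 0.038 with the replicate block and -0.55 to 0.60 with 1 library left out (0.60 without low tension replicate 3). Col7a1 was at 0.052 and 0.018 when low tension replicate 2 or high tension replicate 3 was left out, in a range of -0.21 to 0.052. Col9a2 was at -0.0030 with total counts, and at -0.15, -0.19, -0.13 and -0.0019 without low tension replicates 1 and 2 and high tension replicates 1 and 2, in a range up to 0.79. Col9a3 was at -0.076 with total counts, and at -0.073, -0.016 and -0.16 without low tension replicates 1 and 2 and high tension replicate 3, in a range up to 0.24. The cause of these changes was not tested. For 25 called genes of the other lists the direction was kept in all 393 refits, and 155 of these refits did not pass the threshold. Each list gave at most the 4 called genes with the smallest p and any called gene among its 2 most abundant. Some called neutrophil and B cell genes were therefore not covered. The 25 genes were picked by their calls in these same libraries, so the kept direction is no independent check. Fewer than about 10 counts per library, as in Lum at 50 kPa, limit the precision of most genes below the filter.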
